A study of Mus musculus with 4 samples.

Results

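Expression of Nos1, which encodes neuronal nitric oxide synthase, and of 7 genes of the dystrophin complex (Dmd, Utrn, Sntb1, Dag1, Sgca, Sgcb and Sgcd) was examined in mouse quadriceps. The genes were chosen by symbol as a functional group, with earlier results of these data known. Each was read from the brightest array row that the annotation pairs with its symbol alone. Each of the 8 had 1 such row, so no row was set aside, and the 8 are among 22180 genes named in this way. All 8 lay above the filter on low values, a mean over the 4 arrays at the 40th percentile of all genes (1.48 on the log2 scale), which left 13308 genes for testing.

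Total RNA came from the quadriceps of 4 mice, each hybridised to 1 Affymetrix whole-transcript array. The NF90-NF45 dbTg group held 2 mice with transgenes for both NF90 and NF45, a male (replicate 1) and a female (replicate 2), both 16 weeks old. The WT group held 2 wild-type mice, a male of 17 to 18 weeks (replicate 1) and a female of 16 weeks (replicate 2). The promoter of the transgenes, the strain and any allele shared by both groups are not stated in the sources used here.

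Ilf2, the mouse gene for NF45, read 10.36 and 10.16 on the dbTg arrays, against 5.03 and 5.04 on the WT arrays, so both dbTg arrays lay far above both WT arrays. This checks the NF45 part of the labels, and the NF90 part was not checked here. Of the muscle fibre markers, Acta1, skeletal alpha-actin, read 11.16 and 11.06 in dbTg and 11.02 and 11.05 in WT. The slow myosin gene Myh7 split the arrays by replicate number and not by genotype, with 1.62 and 5.33 in dbTg and 2.30 and 6.29 in WT. Of 14 listed symbols of macrophage and leukocyte markers 11 had an array row and 10 were tested, and their summed unlogged values were 646 and 548 in dbTg, against 98.1 and 91.9 in WT. The summed values of 8 endothelial markers were 179 and 221 in dbTg, against 307 and 338 in WT. Of the marker lists, those of muscle fibres (10 tested, median log2 difference -0.02), endothelium (8, -0.50), smooth muscle and pericytes (8, -0.03) and nerve and Schwann cells (3, -0.19) had 0 genes past the threshold in limma. Before adjustment, at p under 0.05, they had 1 higher and 0 lower, 0 higher and 4 lower, 2 higher and 3 lower, and 0 in either direction, in the same order. Of all 13308 tested genes, 1866 were higher and 617 lower at that level. In the smooth muscle and pericyte list, the 2 higher were Acta2 (log2 difference 0.91) and Des (0.41). The 3 lower were Myh11 (-0.52), Rgs5 (-0.51) and Abcc9 (-0.51). These genes were named after their values were seen. Des is also in the list of membrane repair and the cortical cytoskeleton. Without WT replicate 1 a single endothelial marker was called lower and a single smooth muscle marker higher. In whole muscle, a change in the share of a cell type and a change in RNA per cell cannot be told apart, and the part of these markers in the results below was not tested.

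The dystrophin complex spans the sarcolemma, the membrane of the muscle fibre. Inside, dystrophin binds cortical actin and, through its C-terminal part, the transmembrane protein dystroglycan, whose outer subunit binds laminin in the basement membrane. The sarcoglycans stabilise this link, and syntrophins, bound to dystrophin and dystrobrevin, dock signalling proteins. Neuronal nitric oxide synthase is held at the membrane in this way, and the nitric oxide it makes is known to adjust blood flow to contracting muscle. Loss of dystrophin causes Duchenne muscular dystrophy, and loss of a sarcoglycan causes forms of limb-girdle muscular dystrophy. Utrophin, the autosomal relative of dystrophin, is concentrated at the neuromuscular junction of adult fibres and is known to be more abundant in developing and regenerating fibres.

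RefSeq starts of the members were looked up in a table of assembly GRCm38.p6, to show where transcription of these genes is annotated to begin. The table matched 7 of the 8 members with 9 starts, and held none for Sntb1. The 250 bases before each start were searched on both strands for the E-box CANNTG, the site of myogenic factors such as MyoD, for the N-box TTCCGG, known from genes of the neuromuscular junction, and for the CArG and MEF2 boxes, sites of serum response factor and of MEF2. Neighbouring E-boxes may overlap. Of 32851 windows in the table, 66.2% held an E-box, 12% an N-box, 1.47% a CArG box and 2.92% a MEF2 box. A pair of windows is shown, that of the one gene that passed the test and that of dystrophin. Capitals mark the matches.
Nos1, chr5:117866589-117866838, plus strand: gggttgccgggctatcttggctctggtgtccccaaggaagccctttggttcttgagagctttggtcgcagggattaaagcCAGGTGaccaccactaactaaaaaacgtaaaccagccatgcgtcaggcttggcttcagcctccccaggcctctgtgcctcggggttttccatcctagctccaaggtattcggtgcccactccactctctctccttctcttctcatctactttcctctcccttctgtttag
Dmd, chrX:82948620-82948869, plus strand: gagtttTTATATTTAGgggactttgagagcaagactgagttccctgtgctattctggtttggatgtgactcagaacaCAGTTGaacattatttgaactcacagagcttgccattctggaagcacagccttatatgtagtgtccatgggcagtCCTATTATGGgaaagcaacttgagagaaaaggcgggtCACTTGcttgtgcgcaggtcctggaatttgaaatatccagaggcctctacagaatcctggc

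The Dmd window held 2 E-boxes, a CArG box 98 to 89 bases before the start and a MEF2 box 244 to 235 bases before it. The other listed Dmd start lies 2.1 Mb downstream, and its window held none of the 4 motifs. The Nos1 window held 1 E-box, CAGGTG, 170 to 165 bases before the listed start. It ends in AG after a stretch of 28 bases that are 89.3% pyrimidines, the form of a 3' splice site, and the Utrn window ends in the same form (82.1%). Of all windows, 0.639% end in AG after a stretch of at least 75% pyrimidines. Whether transcription in muscle begins at these Nos1 and Utrn starts was not tested. The Utrn window held 7 E-boxes, the Sgcd window 2, the Sgca window 1 and the Sgcb window none, and the overlapping Dag1 windows shared 1. An N-box was in none of the 9 windows, and the CArG and MEF2 boxes were in the first Dmd window alone. A match describes letters only and says nothing of binding.

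Whether quadriceps with both transgenes differs in the membrane complex was asked by comparing dbTg with WT arrays. Nos1 was lower in dbTg muscle, while dystrophin, dystroglycan and the 3 sarcoglycan genes differed by at most 0.23 on the log2 scale. Utrn and Sntb1 had positive differences that did not pass the threshold. In limma with Benjamini-Hochberg adjustment over all tested genes, 1 of the 8 members fell and 0 rose, while before adjustment, at p under 0.05, 1 was lower and 2 were higher. Across all tested genes 2.21% were called, 2.01% as higher and 0.203% as lower in dbTg. Before adjustment, at p under 0.05 in limma, 1866 of the 13308 tested genes were higher and 617 lower. The unadjusted counts of the members and of each list are to be read beside these. The median log2 difference was -0.12 over the 8 members and 0.09 over all tested genes, and that of the members was 0.07 without WT replicate 2. Both dbTg arrays lay above both WT arrays for 2 members (33.7% of all tested genes) and below them for 2, Nos1 and Sgca (16.3%), and the groups overlapped for the other 4.

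**Figure D1:**
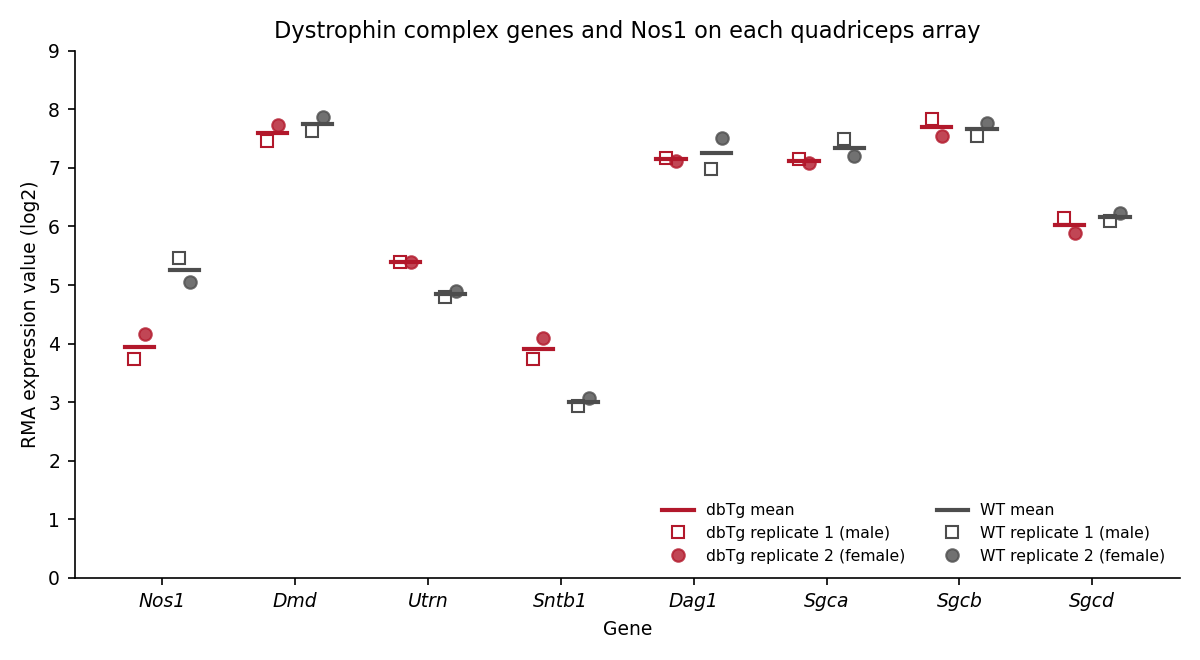
RMA expression values (log2, vertical axis) of the 8 genes on each array, dbTg in red left of WT in grey; squares are males, filled circles females, and bars the means of 2 arrays. For Nos1 both dbTg arrays (3.73 and 4.16) sit below both WT arrays (5.46 and 5.05), while for Dmd the groups overlap.

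Nos1 read 3.73 and 4.16 on the dbTg arrays, against 5.46 and 5.05 on the WT arrays. Both dbTg arrays lay below both WT arrays, by 0.90 at the nearest. The means were 3.95 ± 0.30 in dbTg and 5.26 ± 0.28 in WT (SD, n = 2 each), a log2 difference of -1.31 (SE 0.24, 95% interval -1.88 to -0.74, limma adjusted p = 0.0494), which makes WT 2.48-fold higher. The difference was -1.73 between the males, whose ages differed, and -0.90 between the females. Its adjusted p lay just under the threshold, and it was 0.284 without dbTg replicate 1, 0.259 without dbTg replicate 2, 0.0559 after quantile normalization, 0.0716 with no filter on low values, 0.0589 with no intensity trend and 0.110 with replicate number fitted as a block. Over the 13 alternatives the difference ranged from -1.52 to -1.10. Only leaving out an array, median centring and quantile normalization can move the difference of a member. The filters, the choice of rows, the variance model and the replicate block leave it unchanged and alter only its p.

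The dystrophin gene Dmd, which encodes the actin-binding rod of the complex, read 7.46 and 7.73 in dbTg, against 7.62 and 7.87 in WT. The groups overlapped, and in both the female read higher. The log2 difference was -0.15 (SE 0.17, 95% interval -0.54 to 0.25, adjusted p = 0.694). The interval includes 0, and it bounds the difference without showing that the groups are alike. One row covers the whole gene, so the full-length muscle transcript and the shorter ones from internal starts are not told apart.

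Utrn, the gene of utrophin, read 5.39 and 5.40 in dbTg, against 4.79 and 4.90 in WT. Both dbTg arrays lay above both WT arrays, and the dbTg arrays differed from each other by less than the WT arrays did. The log2 difference was 0.55 (SE 0.17, 95% interval 0.14 to 0.96, adjusted p = 0.158), a 1.46-fold ratio that did not pass the threshold. It was positive under all 13 alternatives (0.43 to 0.60) and was called under none of them. As for Nos1, only leaving out an array, median centring and quantile normalization can move this difference. Markers of the neuromuscular junction, where utrophin is concentrated, had a median difference of 0.51 over 9 tested. Of these, 0 were called by limma, and 5 were higher and 0 lower before adjustment at 0.05. Differences were positive for 7 and negative for 2, Rapsn (-0.16) and Lrp4 (-0.15). The part of these markers in the value of Utrn was not tested. Leaving out WT replicate 1 gave 2 called as higher, and leaving out WT replicate 2 gave 1.

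Sntb1, which encodes beta-1-syntrophin, an adaptor with a PDZ domain, read 3.73 and 4.09 in dbTg, against 2.93 and 3.06 in WT. Both dbTg arrays lay above both WT arrays, by 0.67 at the nearest. The log2 difference was 0.91 (SE 0.23, 95% interval 0.37 to 1.45, adjusted p = 0.0962), a 1.88-fold ratio. It did not pass the threshold here or under the 13 alternatives (adjusted p 0.0726 to 0.538, difference 0.71 to 1.09). Of 11 tested markers of embryonic and regenerating fibres, 6 rose in the same muscles (median difference 2.40), and of 10 tested leukocyte markers 7 rose (median 2.12). Without dbTg replicate 1 or without dbTg replicate 2 these counts were 0 and 1, with medians of at least 1.93, and without WT replicate 1 they were 8 and 9. They were 4 and 5 with replicate number fitted as a block, and 4 and 6 after quantile normalization. The part of either in the values of Utrn and Sntb1 was not tested.

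Dag1, from which both dystroglycan subunits are cut, read 7.17 and 7.12 in dbTg, against 6.98 and 7.51 in WT. The dbTg arrays lay between the WT arrays. The log2 difference was -0.10 (SE 0.20, 95% interval -0.58 to 0.37, adjusted p = 0.838). Without WT replicate 2 it turned to 0.16.

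The sarcoglycans are single-pass membrane proteins that assemble into 1 subcomplex. Sgca, of the alpha subunit, read 7.14 and 7.08 in dbTg, against 7.49 and 7.20 in WT. The groups did not overlap, but the gap between the nearest arrays was 0.06, and the log2 difference was -0.23 (SE 0.16, 95% interval -0.61 to 0.15, adjusted p = 0.499). Sgcb, of the beta subunit, read 7.84 and 7.55 in dbTg, against 7.54 and 7.77 in WT, and Sgcd, of the delta subunit, read 6.14 and 5.89 in dbTg, against 6.09 and 6.23 in WT. For these genes the groups overlapped. The log2 differences were 0.04 for Sgcb (95% interval -0.36 to 0.44, adjusted p = 0.935) and -0.14 for Sgcd (95% interval -0.55 to 0.27, adjusted p = 0.716). The difference of Sgcb was -0.11 without dbTg replicate 1 and -0.08 without WT replicate 1.

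**Figure D2:**
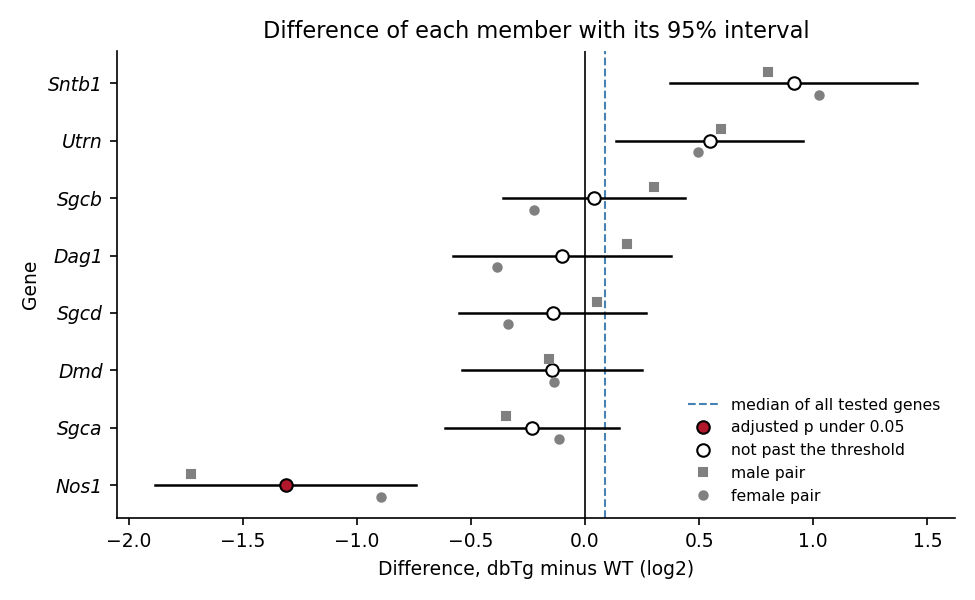
Log2 difference, dbTg minus WT, of each gene (horizontal axis) with its 95% interval from limma; grey squares and circles are the male and female pairs, and the dashed line is the median of all tested genes (0.09). The interval of Nos1 lies below 0, those of Utrn and Sntb1 above 0, and the other 5 cross it.

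The distance of each member from Dmd within an array does not move when a constant is added to all log2 values of an array. It describes each member relative to Dmd. Without this subtraction, both dbTg arrays lay above both WT arrays for 33.7% of all tested genes and below for 16.3%. The share for the distance from Dmd was not computed. Nos1 minus Dmd was -3.73 and -3.57 in dbTg, against -2.16 and -2.81 in WT, so the groups did not overlap. Utrn minus Dmd was -2.08 and -2.33 in dbTg, against -2.83 and -2.96 in WT, again with no overlap. Sntb1 minus Dmd was -3.73 and -3.64 in dbTg, against -4.69 and -4.80 in WT. For each of these 3 genes the two-sided exact permutation p was 0.333, the smallest that 2 arrays against 2 can give. A test with this floor cannot decide whether a gene changed unlike Dmd. For Dag1, Sgca, Sgcb and Sgcd the groups overlapped in their distance from Dmd, with differences of 0.04, -0.08, 0.19 and 0.00363 and exact permutation p of 0.667, 1, 1 and 1. Quantile normalization, which is no constant shift, gave differences in the distance from Dmd of -1.32 for Nos1, 0.58 for Utrn, 0.86 for Sntb1 and -0.035 for Sgcd, against -1.16, 0.69, 1.06 and 0.00363 as deposited.

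The remaining subunits of the complex had 6 tested genes of 8 with an array row, with 0 called by limma and 1 higher and 0 lower before adjustment at 0.05. Their median log2 difference was 0.03, against 0.09 over all tested genes. Dtna, of alpha-dystrobrevin, which binds dystrophin and syntrophin, read 7.00 and 6.80 in dbTg, against 6.19 and 6.65 in WT. Its groups did not overlap, and its log2 difference was 0.48 (adjusted p = 0.261). Sspn, of the tetraspan protein sarcospan, read 3.06 and 3.29 in dbTg, against 3.14 and 2.95 in WT, with overlapping groups (log2 difference 0.13, adjusted p = 0.803). Sgcz and Sntg1 lay under the filter on low values.

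The enzymes that build the laminin-binding sugar chain of alpha-dystroglycan were listed by 24 symbols, older ones included, of which 14 had an array row and 12 were tested, with 0 called and 0 higher and 1 lower before adjustment at 0.05. Their median log2 difference was -0.08. B3galnt2, which adds a sugar of the core chain, read 6.33 and 5.64 in dbTg, against 6.66 and 6.81 in WT (log2 difference -0.75, adjusted p = 0.168). The dbTg arrays of this gene lay below both WT arrays and apart from each other. Pomgnt1, another transferase of the core chain, had a log2 difference of -0.34 (adjusted p = 0.458).

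Laminins, other matrix ligands and integrins had 13 tested genes, with 0 called by limma (3 without WT replicate 1) and 5 higher and 0 lower before adjustment at 0.05. Their median log2 difference was 0.38. Lama2, the laminin alpha chain bound by dystroglycan in adult muscle, read 6.12 and 5.66 in dbTg, against 5.84 and 6.06 in WT. Its groups overlapped (log2 difference -0.06, adjusted p = 0.914). Itga7, the integrin subunit of the parallel laminin receptor, read 5.08 and 4.91 in dbTg, against 4.18 and 3.85 in WT. Its groups did not overlap (log2 difference 0.98, adjusted p = 0.0698), and leaving out WT replicate 1 made it pass (adjusted p = 0.0245). Bgn, of the proteoglycan biglycan, which binds dystroglycan and sarcoglycans, read 7.93 and 8.68 in dbTg, against 7.00 and 7.03 in WT. Its groups did not overlap (log2 difference 1.29, adjusted p = 0.0541), and it passed when WT replicate 1 (adjusted p = 0.0384) or WT replicate 2 (0.0359) was left out, after median centring (0.0486), with the filter at the 60th percentile (0.0444) and with robust eBayes (0.0462). The 7 fibroblast markers, a cell type that also makes matrix, had a median difference of 0.68 with 0 called (3 without WT replicate 1) and 4 higher and 0 lower before adjustment at 0.05, and their part in these values was not tested.

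**Figure D3:**
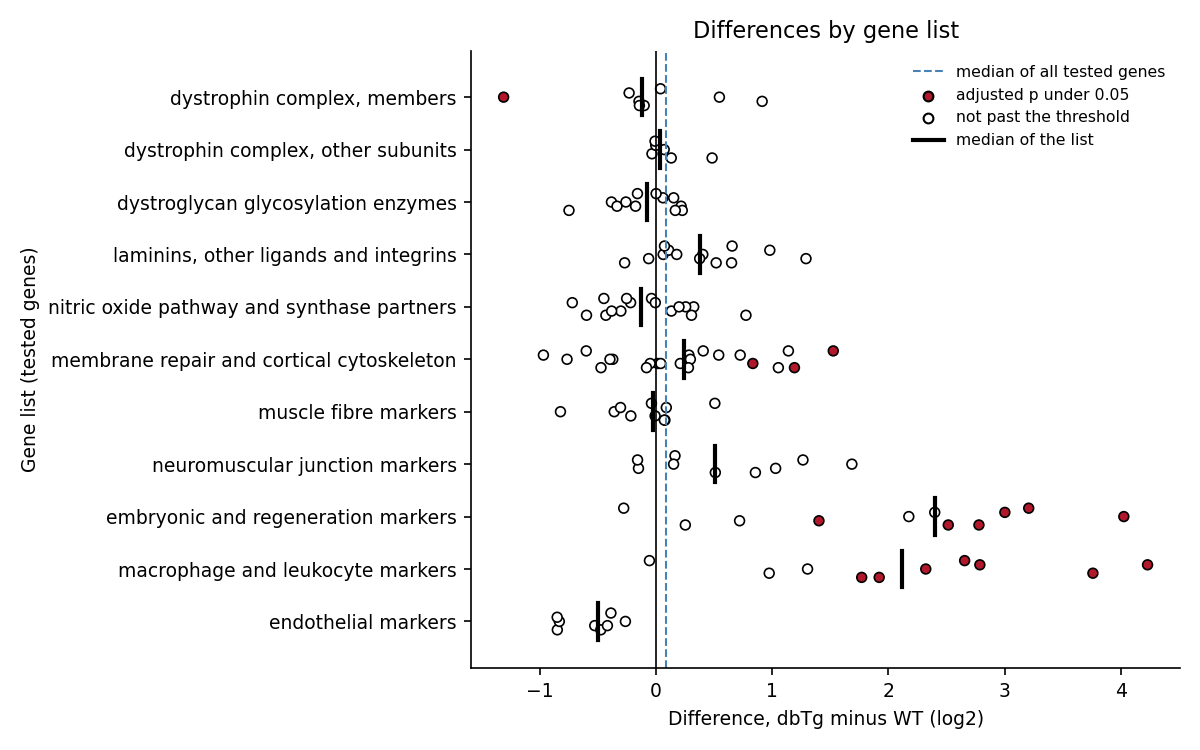
Log2 differences, dbTg minus WT (horizontal axis), of the tested genes of each list drawn. The lists of smooth muscle and pericytes, of fibroblasts, and of nerve and Schwann cells are not drawn. Points are genes, red where the adjusted p was under 0.05. Black bars are list medians, and the dashed line is the median of all tested genes. Among the 6 uppermost lists, red points are Nos1 and 3 genes of the membrane repair and cytoskeleton list.

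Genes that act with Nos1 were listed by 25 symbols, older ones included, of which 19 had an array row and 16 were tested, with 0 called by limma and 1 higher and 3 lower before adjustment at 0.05. Their median log2 difference was -0.13, against 0.09 over all tested genes. Hsp90aa1, a chaperone that nitric oxide synthases bind, read 3.27 and 3.44 in dbTg, against 2.47 and 2.70 in WT (log2 difference 0.77, adjusted p = 0.130). Prkg1, the kinase that cyclic GMP activates downstream of nitric oxide, read 3.76 and 3.82 in dbTg, against 4.23 and 4.55 in WT (log2 difference -0.60, adjusted p = 0.191). Neither gene's groups overlapped. The other 2 of the 3 lower genes, named after their values were seen, were Gucy1a1, a subunit of the nitric oxide receptor guanylate cyclase (-0.72, adjusted p = 0.252), and Pfkm, muscle phosphofructokinase (-0.45, adjusted p = 0.194). Gucy1a1 passed when WT replicate 2 was left out (difference -1.10, adjusted p = 0.0423). Cav3, the muscle caveolin, which binds neuronal nitric oxide synthase, read 4.24 and 3.65 in dbTg, against 3.72 and 3.52 in WT, with overlapping groups (0.32, adjusted p = 0.561).

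The other nitric oxide synthases, chosen after their values were seen, were near the filter on low values. Nos3, the endothelial form, read 1.76 and 1.81 in dbTg, against 1.43 and 1.74 in WT (log2 difference 0.20, adjusted p = 0.639). Nos2, the inducible form of macrophages, read 1.25 and 1.89 in dbTg, against 1.02 and 1.29 in WT, and lay under the filter.

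Genes of membrane repair and the cortical cytoskeleton were listed by 24 symbols, of which 23 had an array row and 22 were tested. Of these, 3 rose and 0 fell, with 8 higher and 4 lower before adjustment at 0.05. Their median log2 difference was 0.24. Leaving out either WT array changed the counts of calls. The 4 lower genes, named after their values were seen, were Capn3 (log2 difference -0.97, limma adjusted p = 0.0619), Aqp4 (-0.77, 0.204), Tln2 (-0.60, 0.152) and Plec (-0.47, 0.186). Anxa1, a calcium-binding annexin that gathers at membrane lesions, read 6.21 and 6.45 in dbTg, against 4.95 and 4.66 in WT (log2 difference 1.53, SE 0.19, adjusted p = 0.0198). Anxa2, of the same family, read 4.77 and 4.94 in dbTg, against 3.80 and 3.53 in WT (log2 difference 1.19, SE 0.21, adjusted p = 0.0437). Flnc, muscle filamin, which binds actin and the sarcoglycans, read 7.94 and 7.82 in dbTg, against 7.02 and 7.07 in WT (log2 difference 0.83, SE 0.14, adjusted p = 0.0428). In none of the 3 did the groups overlap. Annexins are also made by leukocytes, whose tested markers had a median difference of 2.12, and their part was not tested. Without dbTg replicate 1 or without dbTg replicate 2 the adjusted p of the 3 genes lay between 0.137 and 0.384, and with replicate number fitted as a block between 0.0684 and 0.0992. After quantile normalization Anxa2 (0.0864) and Flnc (0.0559) were not called, nor were they with no filter (0.0636 and 0.0586), and Flnc was not called with no intensity trend (0.0818).

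**Figure D4:**
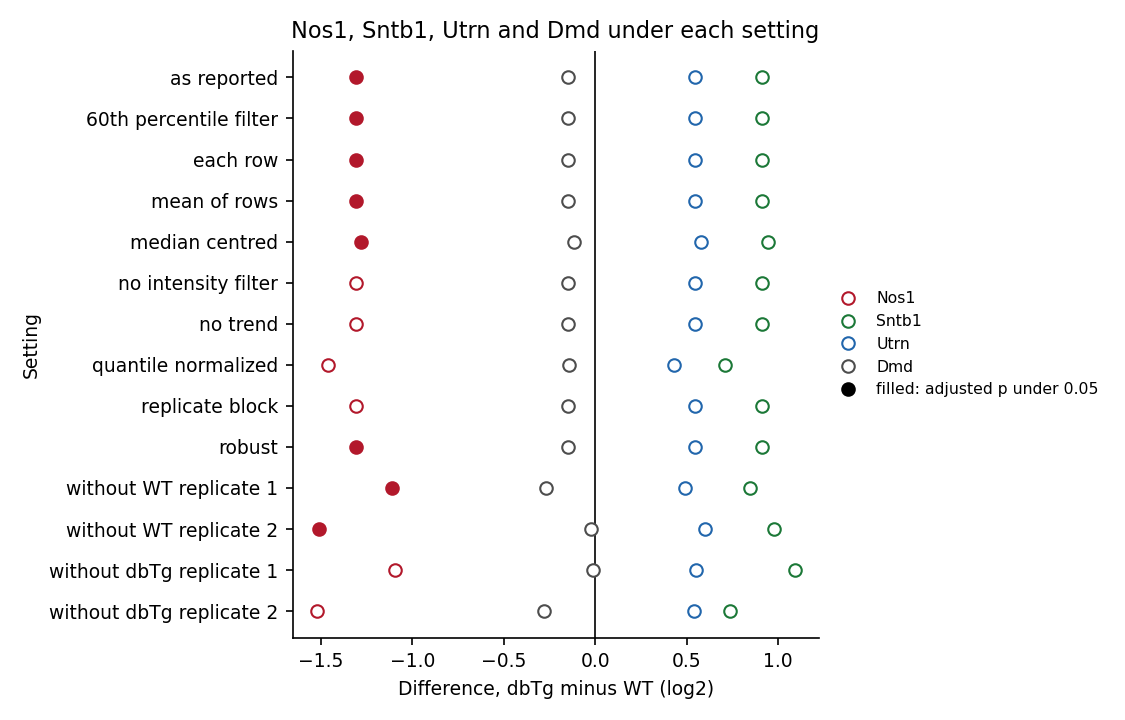
Log2 difference, dbTg minus WT (horizontal axis), of Nos1, Sntb1, Utrn and Dmd as reported and under each of 13 alternative settings; filled points have an adjusted p under 0.05. Nos1 stays between -1.52 and -1.10 and is filled under 7 of the 13 alternatives, while Sntb1, Utrn and Dmd are filled under none.

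The genes with the pattern most like that of Nos1 were found by the root mean square distance between values centred on each gene's mean, over the 4 arrays. The 5 nearest were Crim1 (0.106), Smarca1 (0.131), Gpcpd1 (0.148), Asb10 (0.152) and Chac1 (0.174). Crim1, a transmembrane protein that binds growth factors, read 3.97 and 4.31 in dbTg, against 5.68 and 5.03 in WT. Its log2 difference was -1.21 (adjusted p = 0.0760). Asb10 read 2.27 and 2.61 in dbTg, against 4.05 and 3.25 in WT (-1.21, adjusted p = 0.107). The other 3 passed the threshold in limma, Smarca1 with a log2 difference of -1.23 (adjusted p = 0.0456), Gpcpd1 with -1.36 (0.0369) and Chac1 with -1.61 (0.0494). In all 5, as in Nos1, dbTg replicate 1 was the lowest and WT replicate 1 the highest array. Choosing genes for nearness to Nos1 favours this shared order and direction. With 4 arrays, likeness of this kind describes the values only.

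**Figure D5:**
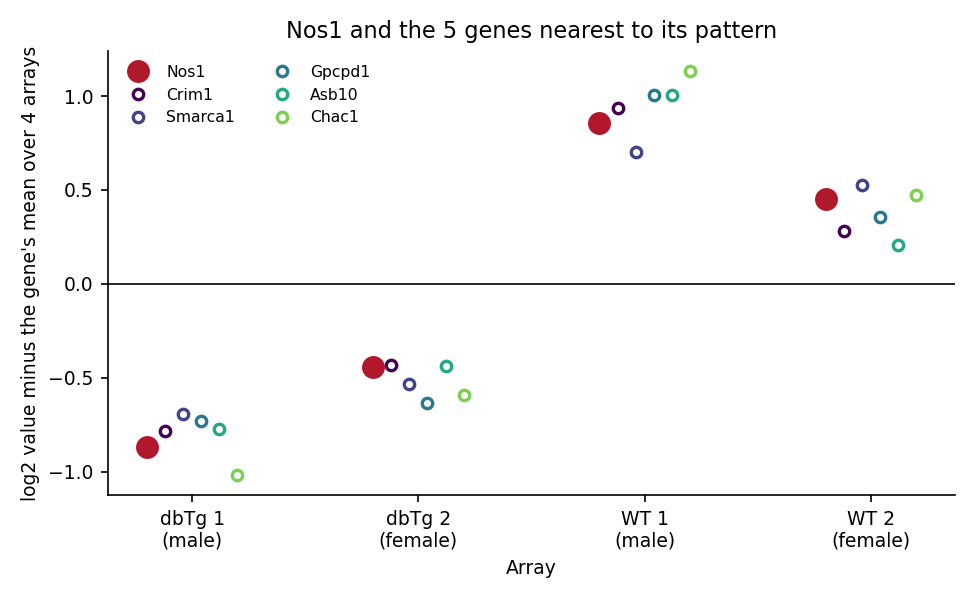
Log2 values minus each gene's mean over the 4 arrays (vertical axis), for Nos1 (large red points) and the 5 genes nearest to it, on each array. The dbTg arrays lie below 0 and the WT arrays above 0 for all 6 genes, farther from 0 in the males than in the females. The choice of the 5 genes by nearness to Nos1 favours this.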

How the data were processed

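Quadriceps RNA of 2 dbTg and 2 WT mice was measured on 1 array each. The deposited values are log2 RMA expression values, made by the authors with Affymetrix Expression Console (RMA-sketch), per the labels; its version is not stated there. RMA corrects background, normalizes by quantiles and summarises probes, which can shrink differences of dim rows. The 75th percentile of the deposited values still differed by group, at 2.99 and 2.98 on the dbTg arrays against 2.80 and 2.78 on the WT arrays. The part of this in the calls was not tested. Of 41345 rows, 23521 had 1 gene symbol, 1814 several and 16010 none in the platform annotation; 23328 matched a RefSeq table (GRCm38.p6) by Entrez identifier, and 0 symbols changed. The brightest row stood for a gene. Genes at or above the 40th percentile were fitted with limma 3.58.1 in R 4.3.3 (lmFit, eBayes with an intensity trend, 2 residual and 4.76 prior degrees of freedom), with Benjamini-Hochberg adjustment over 13308 genes at 0.05. The fit was tested on simulated data, with changes larger than those of the members and an equal spread for all genes. That test therefore does not bear on the calls reported here. The sexes on the labels make the arrays of a group separate mice. The spread between them also holds the difference of sex and, in WT, of age. The p-values rest on this spread and, through the prior, on the spread of all tested genes.

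Members and lists were chosen with earlier results of these data known. Named genes are the members, list genes past the threshold, otherwise the 2 with the smallest p, and Sspn, Lama2 and Cav3 for their known roles. Cell type markers, Nos2, Nos3, Gucy1a1, Pfkm, Capn3, Aqp4, Tln2 and Plec were named besides. Some genes that the rule covers are not reported here. Promoter windows are from RefSeq (GRCm38.p6). Alternatives were leaving out each array, a replicate block, scaling, filters, rows per gene and the variance model. Of these, only leaving out an array and scaling can change the difference of a member. Deviations of same-numbered arrays correlated with r = 0.05 across genes.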

Additional observations from a re-analysis of the deposited data

Results flagged for a closer look

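In 3 members the male and the female pair moved in opposite directions, dbTg minus WT on the log2 scale. Dag1 differed by 0.18 in the males and -0.39 in the females. Sgcb differed by 0.30 in the males and -0.22 in the females, and Sgcd by 0.053 in the males and -0.34 in the females. With 1 array of each genotype and sex, the difference between the pairs was not tested, and the male pair also differed in age.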

How the results depend on the processing

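With 2 arrays a group, precision is low throughout. Of 104 recomputed member differences, 95 kept their direction and side of the threshold. Only leaving out an array and scaling can change a direction, and only Nos1 had a call to lose. The 6 that lost the call were all of Nos1, and the 3 reversals were in genes not called: Dag1 at 0.16 without WT replicate 2 (-0.36 to 0.16 over the arrays left out), and Sgcb at -0.11 without dbTg replicate 1 and -0.08 without WT replicate 1 (-0.11 to 0.19). The count of members that fell was 1, and 0 with no filter, with no intensity trend, after quantile normalization and with the replicate block. When 1 array was left out it ranged from 0 to 1. The count of members that rose was 0 under every alternative. The 294 genes called overall (267 higher, 27 lower) became 172 with no filter (165 and 7), 127 after quantile normalization (120 and 7) and 65 with the replicate block (63 and 2), and ranged from 4 (without either dbTg array) to 766 (without WT replicate 1) when 1 array was left out. With no filter more genes are adjusted for; the other causes were not tested. With an array left out, the lone array of a group is assumed to vary like the other group. The replicate number coincides with sex, and the labels give no shared litter or day. The block removed the call of Nos1, the only member called. Signal over background is unknown for every row, since no detection calls were used.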
